A study of Mus musculus with 4 samples.

Results

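The miR-99/100 and miR-125 families were measured as 5 mature guide strands, mmu-miR-99a, mmu-miR-100, mmu-miR-99b, mmu-miR-125b-5p and mmu-miR-125a-5p, of the 611 mouse microRNAs (miRNAs) on the array. They were taken by name, by a rule that uses no measured value: every probe whose systematic name was a mouse miR-99a, miR-99b, miR-100, miR-125a or miR-125b without a star. That rule matched 7 names, and the 2 of them that end in -3p (miR-125a-3p and miR-125b-3p) are partner strands and are described apart. All 5 guide strands were detected on all 4 arrays.

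The cells were neural stem and progenitor cells (NSPCs) made from mouse embryonic stem cells (ESCs) and grown as neurospheres, which are floating spheres of dividing neural cells. NFIA overexpression (NFIA OE) cells and control cells shared each sphere culture and were separated by fluorescence-activated sorting. NFIA is a transcription factor known for its part in the start of astrocyte formation. The 4 groups, with 1 array each, were secondary neurospheres titled NFIA OE and titled control (passage 1, day 12 after the embryoid body stage) and primary neurospheres titled NFIA OE and titled control (passage 0, day 6). The strain, the promoter that drives NFIA and the marker used for sorting are not given in the sources used here, and the overexpressing cells are described as a single line. Passage and days in culture changed together and cannot be told apart.

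The titles and the source names of the samples disagree on which cells overexpressed NFIA. At each passage the source name given with the title NFIA OE is wild type (WT), and the source name given with the title control is the overexpressing line. The groups here are the titles. If the source names are the right ones, each signed difference between titles turns its sign, while the differences between passages stay as they are. NFIA is a protein-coding gene, so that a miRNA array cannot check it. The cells of each passage were sorted out of a single mixed culture for both of its arrays. Nothing says that separate cultures were sampled, and the p-values cover the spread among the 4 arrays, which may be technical.

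miR-125 is the vertebrate relative of lin-4, a miRNA first found through its control of developmental timing in Caenorhabditis elegans. In vertebrates and many other animals a miR-99/100 gene, a let-7 gene and a miR-125 gene stand side by side and are made from a common transcript. miR-125 and let-7 are known to repress Lin28, whose protein in turn blocks the maturation of let-7, and miR-99/100 are known to repress Mtor and Igf1r, which promote growth. miR-125b is known as an abundant miRNA of neural tissue.

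The mature sequences from RefSeq (GRCm38.p6) are shown because the 5 guide strands fall into 2 groups by their seed, the bases 2 to 8 that choose targets, while their 3′ parts differ. The seed is in capitals, 5′ to 3′. All 5 array names matched a RefSeq mature miRNA, with the array's miR-99a, miR-100 and miR-99b taken as the -5p arm.
miR-99a: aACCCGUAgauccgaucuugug
miR-100: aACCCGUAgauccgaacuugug
miR-99b: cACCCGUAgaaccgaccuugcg
miR-125b-5p: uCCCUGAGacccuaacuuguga
miR-125a-5p: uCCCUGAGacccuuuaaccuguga

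miR-99a, miR-100 and miR-99b share the seed ACCCGUA, which stands at bases 2 to 8 of 3 of the 1679 mouse mature miRNAs in the RefSeq table (0.179%), that is of these 3 alone. miR-125b-5p and miR-125a-5p share the seed CCCUGAG, which 5 of the 1679 hold at bases 2 to 8 (0.298%). Counted from 1 at the 5′ end, miR-99a and miR-100 have 21 of 22 bases in common and differ by U16A, while miR-99b differs from miR-99a by A1C, U11A, U16C and U21C. miR-125a-5p is 24 bases long and miR-125b-5p 22, and the pair is identical through base 13. Read base by base without a gap, 7 positions after it differ, of which the first is A14U. With a gap for the 2 further bases of miR-125a-5p (uu, after base 13), the rest of the pair differs by 1 base. With 1 base between miR-99a and miR-100, probes of either could take up the other, and the split of signal between this pair is uncertain. The 3′ ends of miR-125b-5p and miR-125a-5p are also close, and uptake of either by probes of the other was not tested.

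The genes lie in 3 clusters. Mir99a (mature sequence at chr16:77598940-77598961, plus strand) stands with Mirlet7c-1 and Mir125b-2 (chr16:77646279-77646300), for which the RefSeq gene table lists no gene that contains them. Mir100 (chr9:41531437-41531458, plus strand) stands with Mirlet7a-2 and Mir125b-1 (chr9:41581940-41581961), all 3 inside the long noncoding RNA gene Mir100hg. Mir99b (chr17:17830194-17830215, plus strand) stands with Mirlet7e and Mir125a (chr17:17830817-17830840), all 3 inside the protein-coding gene Spaca6. Mir125b-1 and Mir125b-2 give the same mature miR-125b-5p, which the array therefore reads as 1 sum over the clusters on chromosomes 9 and 16, and let-7a and let-7c have further gene copies elsewhere.

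Signal differed between the arrays. The 75th percentile of intensity over the 252 probes detected on all 4 arrays, by which each array was divided, was 369 and 443 on the secondary arrays titled NFIA OE and titled control, and 261 and 167 on the primary arrays titled NFIA OE and titled control. The same arrays detected 207, 209, 220 and 186 miRNAs, and 153 miRNAs were detected on all 4 and tested. A level is given below as the log2 of intensity after that division, so that 0 is the array's 75th percentile. Levels of different miRNAs come from different probes and are not set against each other. In a bulk sample, fewer cells of a type and less of the miRNA per cell cannot be told apart.

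Of the 5 guide strands, miR-99a differed most between the arrays, with levels of 1.03 and 1.21 on the secondary arrays titled NFIA OE and titled control, and -0.04 and -1.49 on the primary arrays titled NFIA OE and titled control. Both secondary arrays were above both primary arrays, and the lowest level was 6.51-fold below the highest. The intensity of the probe behind these levels was 754.5 ± 17.7 and 1024 ± 40.0 on the secondary arrays, and 253.3 ± 7.52 and 59.4 ± 7.03 on the primary arrays (SD over 8 to 10 spots of 1 array, a technical error only). A second miR-99a probe gave 227.9 and 314.4 on the secondary arrays and 81.97 on the primary array titled NFIA OE, and was not detected on the primary array titled control, so that miR-99a rests on 1 probe. Between the arrays titled NFIA OE of both passages, where both probes were detected, they differed by 1.08 and 0.98 (log2).

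miR-100 had levels of -0.28 and -0.23 on the secondary arrays titled NFIA OE and titled control, and -0.63 and -1.81 on the primary arrays titled NFIA OE and titled control. The order of the arrays was that of miR-99a over a narrower span, 3.0-fold in all. Its probe read 302.8 ± 13.3 and 378.4 ± 23.4 on the secondary arrays, and 169 ± 10.7 and 47.59 ± 6.54 on the primary arrays. The second probe was also not detected on the primary array titled control. Between the arrays titled NFIA OE of both passages the first probe differed by 0.34 and the second by -0.02, so that the probes of miR-100 do not give 1 direction there.

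miR-99b had levels of -1.87 and -1.94 on the secondary arrays titled NFIA OE and titled control, and -1.18 and -1.96 on the primary arrays titled NFIA OE and titled control. The primary array titled NFIA OE stood above the other 3, which lay close together, and the full span was 1.71-fold. Its 2 probes read 134.2 and 76.25 on the secondary array titled NFIA OE, 161.4 and 82.0 on the secondary array titled control, 156.5 and 84.48 on the primary array titled NFIA OE, and 62.04 and 29.88 on the primary array titled control.

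miR-125b-5p had levels of 3.10 and 3.32 on the secondary arrays titled NFIA OE and titled control, and 2.81 and 2.19 on the primary arrays titled NFIA OE and titled control. The secondary arrays were again above the primary ones, within a span of 2.19-fold. Its brighter probe read 7587 ± 274 and 10930 ± 451.5 on the secondary arrays, and 4311 ± 363 and 1871 ± 102 on the primary arrays, and no spot was saturated.

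miR-125a-5p had levels of -0.34 and -0.43 on the secondary arrays titled NFIA OE and titled control, and -0.03 and -0.36 on the primary arrays titled NFIA OE and titled control. It varied least of the 5, by 1.32-fold, and its highest array was the primary one titled NFIA OE. The range over the 4 arrays had a median of 1.13 (log2) over the 5 guide strands and of 0.93 over the 153 miRNAs tested.

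**Figure D1:**
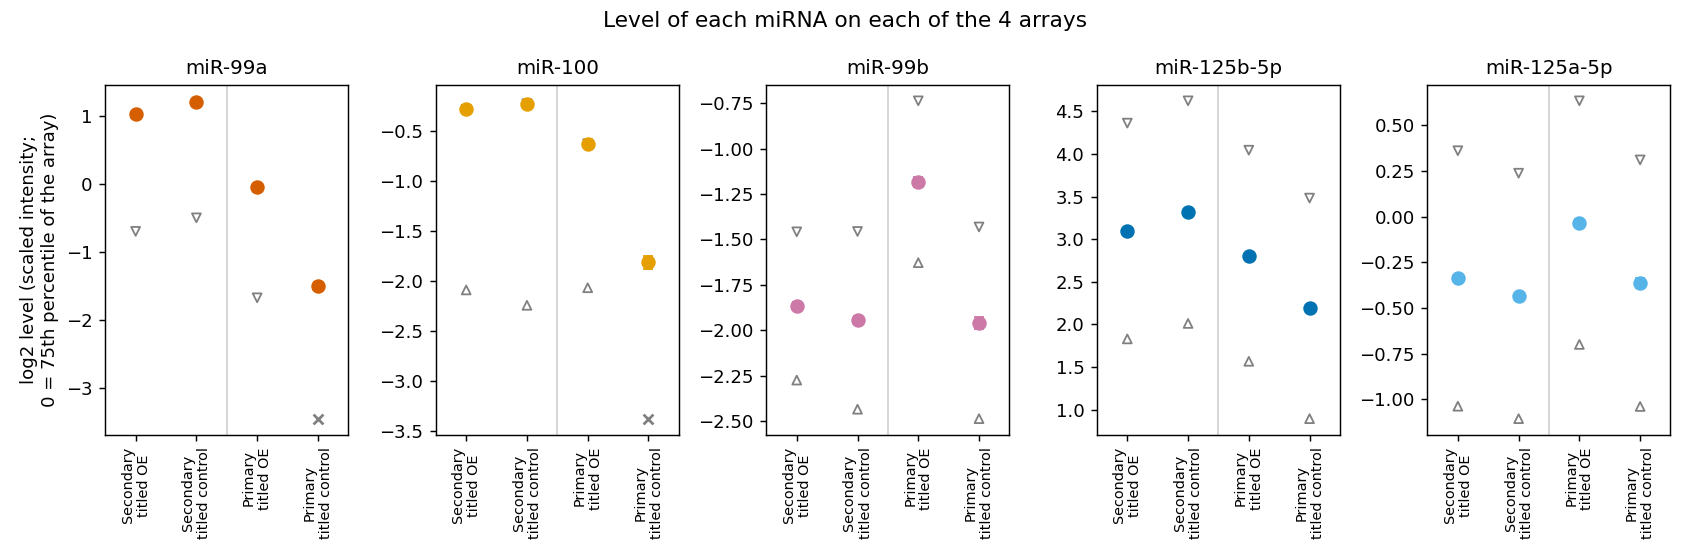
Level of each guide strand (filled circles, log2 of intensity scaled to the array's 75th percentile, bars for the SE over spots, mostly within the symbol) on the 4 arrays, with a vertical scale of its own in each panel. Grey triangles are single probes and crosses probes not detected on that array; for miR-99a and miR-100 the level is that of 1 probe, hidden behind the circle. miR-99a, miR-100 and miR-125b-5p are highest on both secondary arrays, and miR-99b and miR-125a-5p on the primary array titled NFIA OE.

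With 1 array per group there is no spread between samples of a group. The pooled residual SD of the fit described next, 0.29 log2, serves as a rough scale only. It pools over miRNAs how far the title difference changed between passages, and does not measure a spread between samples. The differences between titles on the 2 secondary arrays, from -0.22 to 0.10, were smaller than this SD for each of the 5. The 3 lowest arrays of miR-99b and of miR-125a-5p also lay closer together than this SD.

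Secondary were compared with primary neurospheres in 1 limma fit over the 4 arrays and 153 miRNAs, with title as a second term. In secondary neurospheres miR-99a rose 3.71-fold, miR-100 rose 1.95-fold and miR-125b-5p rose 1.64-fold, and 3 of the 5 guide strands were thus called higher at a limma adjusted p under 0.05, against 13.1% of the 153 miRNAs. None of the 5 was called lower, against 32.7% of the 153. The 2 members that were not called, miR-99b and miR-125a-5p, are the products of the 1 cluster on chromosome 17. As log2 differences of secondary minus primary neurospheres with the shared standard error of 0.29 (n = 2 arrays per passage), the limma fit gave 1.89 for miR-99a (adjusted p = 2.95e-08), 0.97 for miR-100 (adjusted p = 0.00458) and 0.71 for miR-125b-5p (adjusted p = 0.0388). It gave -0.33 for miR-99b (limma adjusted p = 0.356) and -0.19 for miR-125a-5p (limma adjusted p = 0.613). Both arrays of a passage came from a single mixed culture, so that these p-values do not cover the spread between cultures. The members' median difference was 0.71, beside a median of -0.39 over all 153 miRNAs.

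Since the median miRNA lay 0.39 below 0 on this scale, the differences depend on what the arrays are scaled to. Relative to the median miRNA the same 3 were called higher, against 17% of the 153, while miR-99b stood at 0.06 and miR-125a-5p at 0.20, with limma adjusted p-values of 0.905 and 0.683. The sign of these 2 members thus turned with the centring, and it also turned with no scaling (0.62 and 0.76) and in the authors' deposited table (0.30 and 0.46), so that no direction is given for miR-99b and miR-125a-5p. miR-99a, miR-100 and miR-125b-5p were higher in secondary neurospheres in all 13 alternatives, and called in 11, 8 and 7 of them. All 3 calls rest on the spread pooled over miRNAs: judged by its own single residual, each lost its call (limma without the empirical Bayes step, adjusted p = 0.424, 0.484 and 0.476, the highest over the 13 alternatives). For miR-99b and miR-125a-5p the limma adjusted p ran over the alternatives from 0.0685 to 0.905 and from 0.218 to 0.793.

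**Figure D2:**
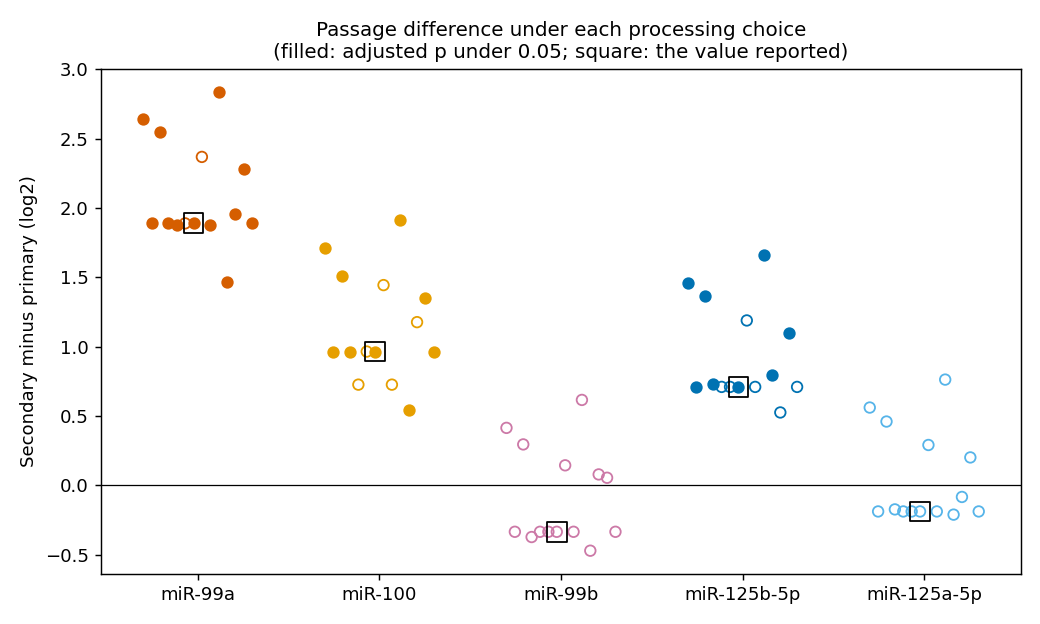
Difference between passages (secondary minus primary, log2) of each guide strand as reported (square) and in the 13 alternatives (filled where the limma adjusted p was under 0.05, open otherwise). miR-99a, miR-100 and miR-125b-5p lie above 0 throughout, from 1.47 to 2.84, 0.54 to 1.92 and 0.53 to 1.66, while miR-99b and miR-125a-5p lie on both sides of 0.

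The authors' deposited table, which is a linear intensity per miRNA, gave miR-99a as 21.1 and 26.0 in secondary neurospheres titled NFIA OE and titled control, and 6.47 and 2.48 in primary neurospheres titled NFIA OE and titled control. In the authors' deposited table miR-125a-5p was at 14.0 and 14.1 in the secondary neurospheres and at 10.9 and 9.60 in the primary ones, and miR-99b at 4.52 and 4.73 in the secondary and 4.65 and 3.05 in the primary ones. Those values place miR-125a-5p higher on both secondary arrays, unlike the scaled levels, and leave miR-99b without a common order.

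A difference between 2 miRNAs taken within each array is not moved by a factor common to the array, though quantile normalization and another background correction can move it. miR-99a exceeded its seed sister miR-99b in its difference between passages by 1.76 (log2) in the pair titled NFIA OE and by 2.69 in the pair titled control, with ranges over 10 alternatives of 1.44 to 1.80 and 2.32 to 2.76. miR-100 exceeded miR-99b by 1.03 and 1.57 in the same pairs. miR-125b-5p exceeded its sister miR-125a-5p by 0.60 and 1.20, and miR-99a exceeded miR-100, of another cluster, by 0.73 and 1.12. Each of these 8 values was above 0 in all 10 alternatives. They have no replicate and no test. Between miR-99a and miR-100, and between miR-125b-5p and miR-125a-5p, uptake by the probes of the other also limits the comparison.

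The let-7 miRNAs of the same clusters were measured too, and their passage differences fell in the same order of clusters as those of miR-99a, miR-100 and miR-99b. let-7c, whose gene Mirlet7c-1 stands beside Mir99a, had levels of 1.53 and 1.71 on the secondary arrays titled NFIA OE and titled control, and -0.19 and -1.997 on the primary arrays titled NFIA OE and titled control. let-7a, partly from the cluster of Mir100, had 2.44 and 2.69 on the secondary arrays, and 1.46 and 0.65 on the primary arrays. let-7e, from the cluster of Mir99b and Mir125a, had 0.86 and 0.81 on the secondary arrays, and 0.82 and 0.18 on the primary arrays. let-7c and let-7a rose in secondary neurospheres by 2.71 and 1.51 on the log2 scale, and let-7e stood at 0.34 without a call (limma adjusted p = 0.356). let-7 miRNAs of none of these clusters rose as well, let-7d by 2.39, let-7i by 2.11, let-7f by 1.74 and let-7g by 1.52. The rise of let-7 was thus not particular to the clusters of the members. Of the 9 let-7 family names on the array, 7 were tested, 6 of these were called higher, against 13.1% of the 153, and 1, let-7e, was not. By their own residuals the 6 lost the call (limma adjusted p from 0.384 to 0.430). The 2 others, let-7b and miR-98, were not detected on the primary array titled control.

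Within each cluster the let-7 miRNA as read on the array had the highest passage difference of the 3 in both pairs. For let-7a and let-7c that reading also holds their gene copies elsewhere. let-7a, let-7c and let-7e are nearly the same in sequence, so that their probes could take up one another, and the split of signal among them is uncertain. In the pair titled NFIA OE and the pair titled control, miR-99a differed from let-7c by -0.64 and -1.01. miR-100 differed from let-7a by -0.63 and -0.46, and miR-99b from let-7e by -0.72 and -0.62. miR-125a-5p differed from let-7e by -0.35 and -0.70. All 8 were below 0 in each of 10 alternatives.

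**Figure D3:**
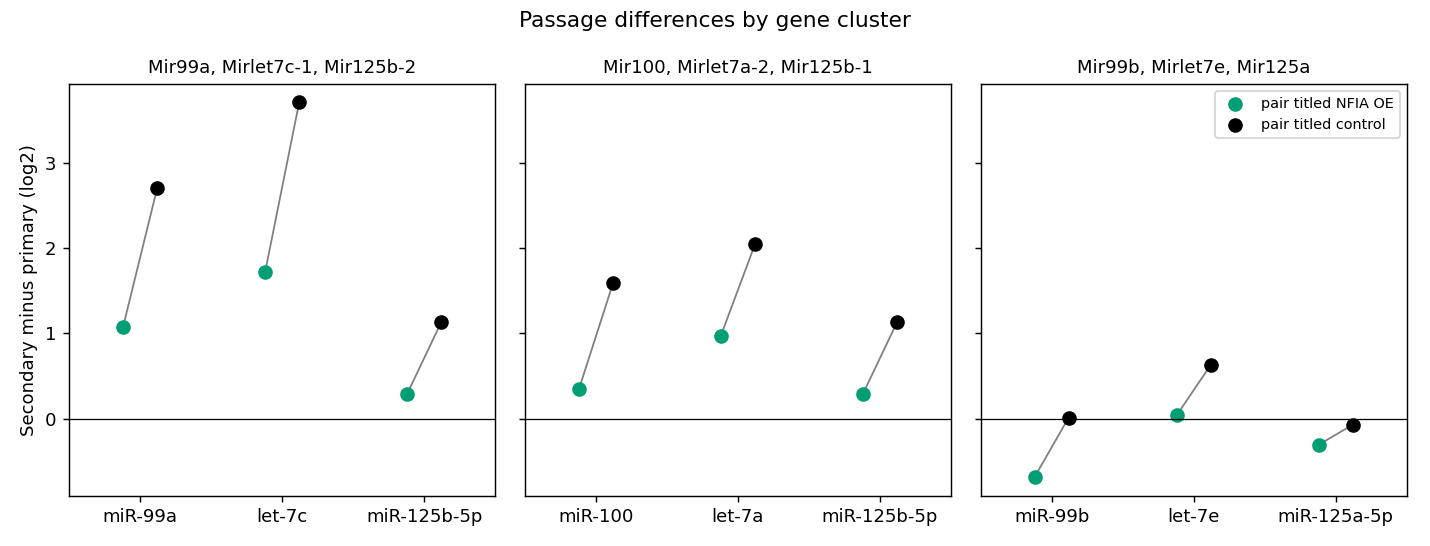
Difference between passages (secondary minus primary, log2) of the 3 miRNAs of each cluster, in the pair of arrays titled NFIA OE (green) and the pair titled control (black), with 1 array on each side and no error; miR-125b-5p is shown under both of its genes. All values of the first 2 clusters are above 0, from 0.29 to 3.71, and those of Mir99b, Mirlet7e and Mir125a lie between -0.68 and 0.63.

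The passage difference of the 3 called members was smaller between the arrays titled NFIA OE than between those titled control, each pair being what remains when an array of the other is left out. miR-99a was 2.11-fold higher on the secondary array in the pair titled NFIA OE and 6.51-fold in the pair titled control. miR-100 was 1.27-fold and 3.0-fold higher, and miR-125b-5p 1.22-fold and 2.19-fold higher. Over 10 alternatives the log2 difference ran from 0.95 to 1.77 in the pair titled NFIA OE and from 1.99 to 4.11 in the pair titled control for miR-99a, from 0.16 to 1.04 and from 0.84 to 2.99 for miR-100, and from 0.29 to 0.98 and from 0.68 to 2.53 for miR-125b-5p. In the pair titled NFIA OE, 1 of the 5 was at least 2-fold higher against 5.23% of the 153 miRNAs, and in the pair titled control 3 of the 5 against 10.5%. Both secondary arrays were above both primary arrays for 3 of the 5, against 15% of the 153.

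Markers of cell types also differed between the passages. The neural markers miR-9, miR-9* and miR-124 were all 3 detected on each array, at summed scaled intensities of 6.53 and 9.96 on the secondary arrays titled NFIA OE and titled control, and 2.44 and 2.64 on the primary arrays titled NFIA OE and titled control. They did not move together: in the pairs titled NFIA OE and titled control, miR-9 differed between passages (secondary minus primary, log2) by 1.68 and 2.06 and miR-9* by 2.15 and 3.04, but miR-124, a marker of neurons, by -1.01 and -1.56. Of 16 pluripotency markers of the miR-290 and miR-302 clusters, 7 and 1 were detected on the secondary arrays, at sums of 0.521 and 0.0495, and 11 and 10 on the primary arrays, at sums of 4.72 and 5.74. miR-290-3p, miR-291a-5p, miR-291b-3p, miR-291b-5p and miR-292-5p of that list were detected on no array. Markers of muscle (4), endothelium (2), blood (5), epithelium (5) and liver (1) were detected on 0 arrays. The part of these cell types in the passage differences was not tested.

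NFIA OE-titled neurospheres were compared with control-titled ones in the same limma fit, with passage as the second term. None of the 5 guide strands was called (0 of 5), beside 2.61% of the 153 miRNAs. At an unadjusted limma p under 0.05 there was 1 of 5, miR-99a, beside 10.5% of the 153. The differences, titled NFIA OE minus titled control, were 0.64 for miR-99a (limma adjusted p = 0.328), 0.57 for miR-100 (limma adjusted p = 0.515), 0.43 for miR-99b, 0.21 for miR-125a-5p and 0.20 for miR-125b-5p (limma adjusted p from 0.886 to 0.920), each with a standard error of 0.29. The members' median was 0.43 and that of all 153 miRNAs -0.00. The 5 values were above 0 in all 12 alternatives that left out no array, with none called in any of them. Without either primary array only the secondary pair given below remains, where miR-99a, miR-100 and miR-125b-5p were below 0.

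These averages joined unlike values of the 2 passages. In primary neurospheres all 5 were higher in the array titled NFIA OE, against 49% of the 153 miRNAs: miR-99a by 2.73-fold, miR-100 by 2.28-fold, miR-99b by 1.71-fold, miR-125b-5p by 1.53-fold and miR-125a-5p by 1.26-fold. As log2 differences these were 1.45 (SE over spots 0.056), 1.19 (0.069), 0.78, 0.62 and 0.33, and each was above 0 in 10 of 10 alternatives. Their size depended on the processing, with ranges over these of 0.87 to 2.09, 0.55 to 1.83, 0.24 to 1.42, 0.33 to 1.26 and 0.04 to 0.97. In secondary neurospheres the differences were -0.18 (SE over spots 0.022), -0.06, 0.08, -0.22 and 0.10 in the same order of miRNAs. There 2 of the 5 were higher, against 41.2% of the 153, and 0 of 5 reached 2-fold, against 1.96%. At passage 0, 2 of the 5 reached 2-fold, against 5.88%.

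The sign at passage 1 held in 10 of 10 alternatives for miR-99a and in 9 of 10 for miR-125b-5p, but in 6, 5 and 7 of 10 for miR-100, miR-99b and miR-125a-5p. The second miR-100 probe, detected on both secondary arrays, gave 0.15 there, against -0.06 for the first. miR-99a, miR-100 and miR-125b-5p, 3 of 5, were higher under the NFIA OE title at passage 0 and lower under it at passage 1, as were 25.5% of the 153. The change of the title difference between passages (secondary minus primary) was -1.63 for miR-99a, -1.24 for miR-100, -0.84 for miR-125b-5p, -0.70 for miR-99b and -0.24 for miR-125a-5p. Ordered from the lowest of the 153, these held places 3, 6, 14, 18 and 50, and the median of all 153 was -0.01. The first 4 were below 0 in 10 of 10 alternatives and miR-125a-5p in 9. The change was not particular to the members. For the tested let-7 miRNAs it ran from -0.59 (let-7e) to -1.89 (let-7i) and -1.99 (let-7c), and for miR-322 it was -1.38.

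**Figure D4:**
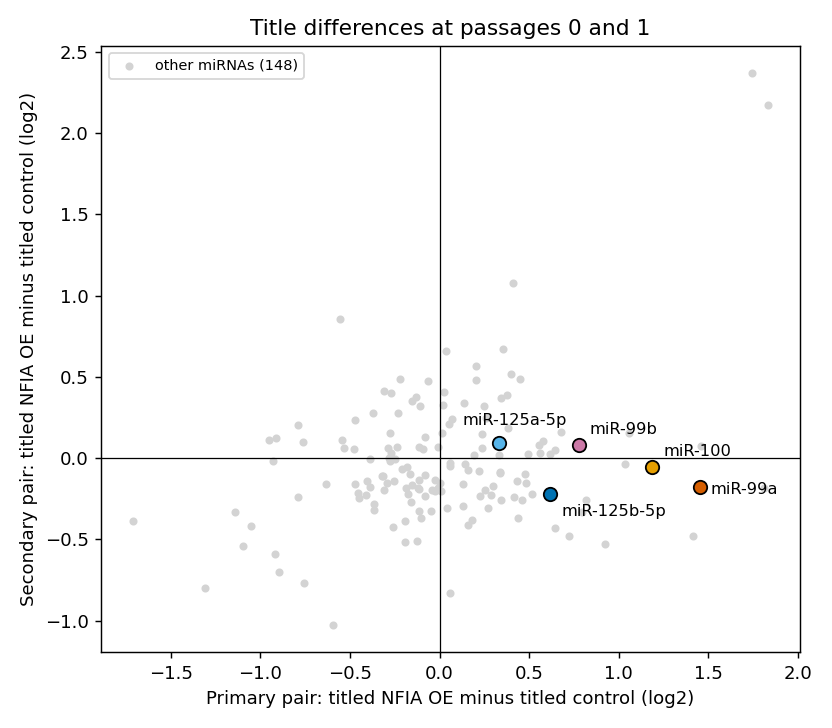
Difference between titles (titled NFIA OE minus titled control, log2) in the primary pair (horizontal axis) and the secondary pair (vertical axis) for the 5 guide strands (coloured) and the other 148 miRNAs tested (grey). All 5 lie right of 0, from 0.33 to 1.45, while their vertical positions stay between -0.22 and 0.10.

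With 1 array per group this change is the whole residual of the fit, and it has no test. It equals the gap between the passage differences of the pair titled NFIA OE and the pair titled control. Both are thus a single observation, and the residual SDs given next restate its size. The residual SD of each miRNA on its own was 0.81 for miR-99a, place 3 from the highest of 153, 0.62 for miR-100 (place 8), 0.42 for miR-125b-5p (21), 0.35 for miR-99b (29) and 0.12 for miR-125a-5p (97), while the fit judged all by 0.29. On the primary array titled control 4 of the 5 had their lowest level, against 24.2% of the 153. It was also the dimmest array, with a 75th percentile of 167 intensity units, and the part of the low signal in this was not tested. Taken within each array, in the primary pair miR-99a exceeded miR-99b by 0.68 and miR-125b-5p exceeded miR-125a-5p by 0.29, both above 0 in 10 of 10 alternatives. All 4 arrays lay on 1 slide, where position cannot be told apart from title and passage.

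Of the listed markers of mesenchymal cells, those detected, all of them miR-199 or miR-214 names, went with the title. miR-199a-3p and miR-199b* were detected under both titles, and miR-199a-5p and miR-214 under the NFIA OE title alone. Of 6 on the array, 4 and 2 were detected on the secondary arrays titled NFIA OE and titled control, with summed scaled intensities of 1.63 and 0.253, and 4 and 2 on the primary arrays titled NFIA OE and titled control, with 1.48 and 0.358. miR-143 and miR-145 of that list were detected on no array. Their part in the title differences was not tested.

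The partner strands, which are cut from the other arm of the same hairpins and mostly degraded, stayed at background. Of 6 names, 4 were on the array (miR-99b*, miR-125a-3p, miR-125b-3p and miR-125b*), and none was detected on any array. Their probes had mean intensities from -5.43 to 14.5, with 0 of 315 spots well above background. The values of the guide strands therefore have no second reading from the same hairpins.

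The RefSeq table holds other mouse miRNAs with the miR-125 seed, and 2 relatives were on the array. They are shown because miR-351-5p shares that seed with the members and miR-670-5p holds its letters at a shifted position.
miR-351-5p: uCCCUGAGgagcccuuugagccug
miR-670-5p: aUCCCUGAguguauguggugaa
miR-351-5p (chrX:53053315-53053338, minus strand) has the miR-125 seed in full, and miR-670-5p (chr2:94261358-94261379, minus strand) has it moved by 1 base. miR-351 was detected on both secondary arrays and on neither primary array, with mean intensities of 23.5 and 22.6 on the secondary arrays titled NFIA OE and titled control, and 14.4 and 4.75 on the primary arrays titled NFIA OE and titled control. These are the values of 1 of its 4 probes; the other 3 were detected on no array, with mean intensities from -2.58 to 3.15. So near to background no fold can be given. miR-670 was detected on 3 arrays, all but the secondary one titled NFIA OE, again by 1 of 4 probes, which read 21.98 and 31.5 on the secondary arrays and 26.2 and 21.7 on the primary arrays. Its other 3 probes, from -3.57 to 13.4, were detected on no array.

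Of the miRNAs transcribed with miR-351, 5 were on the array and 1, miR-322, was tested. The name miR-424, also listed, is that of the human counterpart of miR-322 and was not on the array. miR-322 rose 2.0-fold in secondary neurospheres (log2 difference 1.00, limma adjusted p = 0.0033), with levels of 1.37 and 1.29 on the secondary arrays and 1.06 and -0.40 on the primary arrays titled NFIA OE and titled control. The difference was 0.31 in the pair titled NFIA OE and 1.69 in the pair titled control, and the call was lost by its own residual (limma adjusted p = 0.505). miR-503, miR-542-3p and miR-450a-5p were detected on 3 arrays, all but the primary one titled control, and miR-450b-5p on 0.

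The miRNAs most like each member were found by the root mean square (RMS) difference of log2 levels over the 4 arrays, each profile centred on its own mean. The 3 nearest to miR-99a were let-7i (0.155), let-7a (0.296) and let-7f (0.307), all of the let-7 family. The nearest to miR-100 were miR-322 (0.107), miR-181a (0.123) and miR-125b-5p (0.245), and the nearest to miR-125b-5p were miR-23a (0.116), miR-29c (0.138) and miR-27a (0.182). miR-99b was nearest to miR-720 (0.0883), miR-652 (0.158) and miR-494, and miR-125a-5p to miR-1904 (0.037), miR-652 (0.0568) and miR-494 (0.0789). The 2 members from chromosome 17 thus had 2 of their 3 nearest miRNAs in common. With 4 arrays that share their culture in pairs, these distances describe the profiles and carry no test.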

How the data were processed

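Total RNA with its small fraction was labelled with Cy3 (miRNA Complete Labeling and Hybridization Kit V2, per the labels' protocols) and hybridised to 4 one-colour Agilent mouse miRNA arrays. Per the file headers, the deposited scanner files hold a linear intensity per spot, which Feature Extraction 10.5.1.1 had detrended and background-subtracted without any scaling from array to array. The value table that the authors deposited equals the scanner's total gene signal (a linear intensity) divided by a constant per array, 31.0, 33.7, 34.1 and 20.3 for the secondary arrays titled NFIA OE and titled control and the primary arrays titled NFIA OE and titled control, with no log and no centring. Its column medians were 0.816, 0.700, 0.830 and 0.882. The sources used here do not say why these constants were taken.

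Flagged spots (265 to 300 of 13000 an array) were left out, and the rest averaged per probe (1857 probes). Detection of a probe needed 50% or more of the spots well above background. Intensities were scaled by the array's 75th percentile of the 252 commonly detected probes and put on the log2 scale, and a miRNA's commonly detected probes were averaged. The number of arrays limits the precision. Limma 3.58.1 (R 4.3.3) fitted title and passage together on 153 miRNAs, with Benjamini-Hochberg adjustment over all 153 and a threshold of 0.05. Its prior was infinite, which gave every miRNA the standard error of 0.29. A single pair of arrays has no test. In 20 simulated data sets with 30 changed miRNAs of 153, 67.3% of 2-fold and 98.7% of 4-fold changes were recovered in each comparison, with 4.05% false calls for title and 2.54% for passage, under the independent equal noise that the fit assumes.

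Samples were grouped by title. All members are named. The companion lists were partner strands, let-7, miR-125 seed relatives, the mates of miR-351, cell type markers and, for each member, the 3 nearest miRNAs by RMS. Members and lists were chosen with earlier results of these data known. Alternatives changed the scaling, the background correction (normexp, offset 50), the source of values, the filter, the summary over probes, the terms of the fit and the arrays used; each miRNA's own residual was added after the data were seen. Sequences and positions are from RefSeq tables of GRCm38.p6.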

Additional observations from a re-analysis of the deposited data

Results flagged for a closer look

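Of the values above, 4 were singled out because both pairs of arrays moved in opposite directions under the same contrast. The title difference of miR-99a (titled NFIA OE minus titled control) was -0.18 in secondary and 1.45 in primary neurospheres, a change of -1.63. That of miR-100 was -0.06 in secondary and 1.19 in primary neurospheres, a change of -1.24, and its sign at passage 1 held in 6 of 10 alternatives. The second miR-100 probe gave 0.15 in secondary neurospheres, so that no direction is given for miR-100 there. That of miR-125b-5p was -0.22 in secondary and 0.62 in primary neurospheres, a change of -0.84. The passage difference of miR-99b (secondary minus primary) was -0.68 in the pair titled NFIA OE and 0.01 in the pair titled control, a change of -0.70, and the second of these was within its error over spots. None of the 4 differences was tested, since each side is 1 array. Such a change was not particular to the members. The title difference of let-7c was -0.18 in secondary and 1.81 in primary neurospheres, a change of -1.99.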

How the results depend on the processing

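Passage, which stands for the shared culture, was a term of the title fit, and no pairing by replicate number was possible because the titles carry none. No member was called between titles in any of 12 alternatives. Over all 153 miRNAs, 4 were called between titles (2 higher, 2 lower). There were 2 when the 75th percentile was taken over every probe, with quantile normalization, without scaling and without a filter (each 2 higher, 0 lower) and with all spots required well above background (1 each way). There were 0 with median centring (6 at an unadjusted limma p under 0.05), without the passage term (2) and with each miRNA's own residual (8). Between passages 70 were called (20 higher, 50 lower). There were 30 (25 higher, 5 lower) with that percentile over every probe, 21 (20 higher, 1 lower) without scaling, and 108 (19 higher, 89 lower) with miRNAs detected on at least 1 array, where more miRNAs were tested. There were 0 with median centring (44 at an unadjusted limma p under 0.05) and with the own residual (21). Quantile normalization gave 51 (21 higher, 30 lower), the values deposited by the authors 56 (39 higher, 17 lower), normexp 87 (14 higher, 73 lower) and the median miRNA as zero 53 (26 higher, 27 lower).

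Of the 3 members called between passages, 1 was left with quantile normalization, with miRNAs detected on at least 1 array and without a filter, and 0 with median centring (3 at an unadjusted limma p under 0.05) and with the own residual (0). The members' median of 0.71 became 1.46 with the percentile over every probe, 1.66 without scaling, 1.19 with median centring, 1.37 in the authors' deposited table and 1.10 relative to the median miRNA. Leaving out 1 array at a time gave 0.29 to 1.13 for it and -0.056 to 0.78 for the title median of 0.43: without either array titled control the passage median was 0.29, and without either primary array the title median was -0.056. The passage differences of miR-99b and miR-125a-5p turned to 0.41 and 0.56 with the percentile over every probe, 0.62 and 0.76 without scaling, 0.14 and 0.29 with median centring, 0.30 and 0.46 in the authors' deposited table, and 0.055 and 0.20 relative to the median miRNA. miR-99b also turned to 0.079 with quantile normalization. Where fewer or more miRNAs were tested the construction differs, and otherwise the cause was not tested. Dim probes limit miR-99a and miR-100 to 1 probe each.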
